A study of Mus musculus with 38 samples.

Results

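The 4 genes described here serve the uptake and use of ketone bodies, and each was represented by 1 cluster of transcription start sites in the soleus muscle of mice. They are Slc16a1, Bdh1, Oxct1 and Acat1, and a cluster was taken for a gene when its highest peak lay within 500 bp, on the same strand, of a 5′ end that GENCODE vM21 annotates for that gene. All 4 genes had such a cluster, so that 4 of the 10819 clusters of the table were examined, and the same 4 were found with a window of 100 or 1000 bp. Of all clusters, 9615 were assigned to a gene by this rule.

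Start sites were counted by nAnT-iCAGE, a form of cap analysis of gene expression that sequences the capped 5′ ends of RNA without amplification, in 38 libraries of 1 male C57BL/6J mouse each. Run 1 held 28 libraries and 6 groups. The Pre group (n = 4) was fed freely and sampled on day 1. The Mid group (n = 8) had its food withdrawn at low ambient temperature, which brings mice into torpor, and was sampled on day 2. The Post group (n = 4) had its food back and was sampled on day 3. On day 2 there were also mice at a high ambient temperature (HiT, n = 4), mice that stayed with food at low temperature (Fed, n = 4) and fasted mice kept out of torpor by gentle touching (Dep, n = 4). Run 2 was a further batch of mice with 2 Pre, 5 Mid and 3 Post libraries. The study's methods describe the HiT mice as fasted, whereas the series text describes them as having food, and a label of the Fed libraries reads starvation. The groups were taken from the library titles, and whether the HiT mice ate cannot be settled from the labels. Either 1 or both soleus muscles of a mouse were used, depending on the RNA needed.

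Ketone bodies are made in the liver when food is scarce and are burned by muscle, heart and brain. Monocarboxylate transporter 1, the product of Slc16a1, carries them across the cell membrane together with lactate and pyruvate. In the mitochondrion, BDH1 oxidises 3-hydroxybutyrate to acetoacetate, SCOT, the product of Oxct1, activates acetoacetate with the coenzyme A of succinyl-CoA, and ACAT1 splits acetoacetyl-CoA into acetyl-CoA. BDH1 and ACAT1 catalyse reversible steps that are also used elsewhere, while the SCOT step is the one that tissues need in order to use ketone bodies and that the liver lacks.

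The clusters lay at the following places of mm10. The Slc16a1 cluster covered chr3:104638453-104638828 on the plus strand, with its peak at position 104638665, which is 3 bp before exon 1 of Slc16a1-201. The Bdh1 cluster covered chr16:31428383-31429221 on the plus strand. Its peak at 31428811 lay inside exon 1 of Bdh1-203, Bdh1-205 and Bdh1-207, 19 bp from the 5′ end of the last, and 6531 bp downstream of the gene's 5′-most annotated end, where the table held no cluster. The Oxct1 cluster covered chr15:4026102-4026852 on the plus strand, and its peak at 4026684 coincided with the annotated end of Oxct1-205, within exon 1 of Oxct1-201. The Acat1 cluster covered chr9:53610211-53610481 on the minus strand, with a peak at 53610344 inside exon 1 of Acat1-201. The Bdh1 and Oxct1 clusters were broad, at 839 and 751 bp, wider than 96.0% and 94.6% of all clusters, whose median width was 281 bp. The Acat1 and Slc16a1 clusters were 271 and 376 bp wide. Genes annotated on the opposite strand overlap the Bdh1 cluster (Gm15743) and the Oxct1 cluster (BC037032). CAGE keeps the strand, and no cluster lay on the opposite strand within 1000 bp of any of the 4.

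Promoter windows of RefSeq (GRCm38.p6, 250 bases before and 50 after an annotated start) were at hand for 3 of the 4 genes, with 2 windows for Bdh1 and none for Acat1. The part of each window before the first annotated exon start inside it is given below, 5′ to 3′ on the plus strand. For the Bdh1 start with the cluster, this part lies downstream of the gene's 5′-most annotated end. The sequences are shown because the Bdh1 start with a cluster and the one without differ in base composition. In addition, Slc16a1 stands apart from the others in its content of CpG. Capitals mark matches to 5 motifs searched on both strands. They were the TATA box (TATAAA), the core of the box bound by NF-Y (CCAAT), the GC box bound by SP factors (GGGCGG), the E-box of bHLH factors (CACGTG) and the site of estrogen-related receptors (AAGGTCA).
Slc16a1, chr3:104638414-104638663: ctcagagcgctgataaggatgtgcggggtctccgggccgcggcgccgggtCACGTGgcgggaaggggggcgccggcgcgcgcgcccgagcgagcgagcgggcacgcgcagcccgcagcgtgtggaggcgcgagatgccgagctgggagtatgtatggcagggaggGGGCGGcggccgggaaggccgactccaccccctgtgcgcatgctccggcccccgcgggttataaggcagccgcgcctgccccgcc
Bdh1, start with the cluster, chr16:31428503-31428747: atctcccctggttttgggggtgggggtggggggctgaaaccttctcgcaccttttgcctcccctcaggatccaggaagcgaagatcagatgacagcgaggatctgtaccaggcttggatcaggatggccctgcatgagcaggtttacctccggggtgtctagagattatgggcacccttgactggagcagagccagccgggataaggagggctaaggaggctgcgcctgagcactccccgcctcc
Bdh1, upstream start without a cluster, chr16:31422047-31422279: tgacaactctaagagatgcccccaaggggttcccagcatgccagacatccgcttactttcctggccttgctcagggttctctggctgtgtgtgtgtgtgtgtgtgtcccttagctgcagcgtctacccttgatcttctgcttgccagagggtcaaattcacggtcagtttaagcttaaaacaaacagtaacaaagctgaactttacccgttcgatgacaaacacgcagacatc
Oxct1, chr15:4026178-4026382: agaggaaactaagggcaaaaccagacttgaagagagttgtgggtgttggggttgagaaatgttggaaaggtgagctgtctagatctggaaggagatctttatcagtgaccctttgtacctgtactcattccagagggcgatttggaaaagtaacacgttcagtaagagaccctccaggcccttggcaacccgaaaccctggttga
The whole Slc16a1 window was 73.7% G and C and held 42 CpG, against medians of 52.7% and 7 CpG over the 32851 windows of RefSeq. It held CACGTG, which reads the same on both strands and occurs in 7.15% of all windows, 200 bases before the RefSeq start, and GGGCGG, found in 35.7% of windows, 85 bases before it. The window at the Bdh1 start with the cluster was 63.7% G and C with 17 CpG, and its only match was a GGGCGG on the minus strand at base 15 past the RefSeq start, outside the printed part. The window at the upstream Bdh1 start was 48.3% G and C with 7 CpG. The Oxct1 window was 55.3% G and C with 11 CpG. The peaks of the clusters lay 1 bp past the RefSeq start for Slc16a1, 58 bp past it for Bdh1 and 256 bp past it for Oxct1, so that the Bdh1 and Oxct1 peaks lie beyond the end of their windows and the Oxct1 window is not the sequence around its peak. Neither the upstream Bdh1 window nor the Oxct1 window held any of the 5 motifs. The TATA box, the NF-Y box and the receptor site, which occur in 13.6%, 37.4% and 4.72% of all windows, were found in none of the 4.

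Tags inside clusters numbered from 18257657 to 39176649 per library in run 1 and from 9359994 to 20914855 in run 2. The defining markers of skeletal muscle were present, with clusters for 6 of 6 slow fiber and 6 of 6 fast fiber genes. One library stood apart, HiT replicate 4, in which the 10 most abundant clusters took 40.3% of the tags. Levels below are counts per 1000000 tags (CPM) scaled by TMM (trimmed mean of M values, which corrects for a few very abundant clusters) within each run. Each capped end gives 1 tag, so a level does not depend on transcript length. Differences are log2 fold changes from edgeR's quasi-likelihood test, with Benjamini-Hochberg adjusted p-values over all clusters and a threshold of 0.05. In bulk muscle, fewer cells of a type and less RNA per cell cannot be told apart.

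All 4 clusters were well expressed. Over the 28 libraries of run 1 the mean levels were 413 for Acat1, 344 for Oxct1, 279 for Bdh1 and 48.3 for Slc16a1, higher than 97.4%, 96.9%, 96.1% and 78.1% of all clusters. The lowest count behind any value was 603 tags, for Slc16a1. Bdh1 varied most among the groups of run 1, with 2.37-fold between the highest and the lowest group mean, against 1.40-fold for Slc16a1, 1.31-fold for Acat1 and 1.29-fold for Oxct1. Of the 15 pairs of groups, 8 differed for Bdh1, 6 for Oxct1, 5 for Acat1 and 5 for Slc16a1. Many other clusters differed too, from 199 of 10776 between Post and Pre to 4657 between HiT and Fed. Whether these counts of pairs exceed those of other clusters was not tested.

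**Figure D1:**
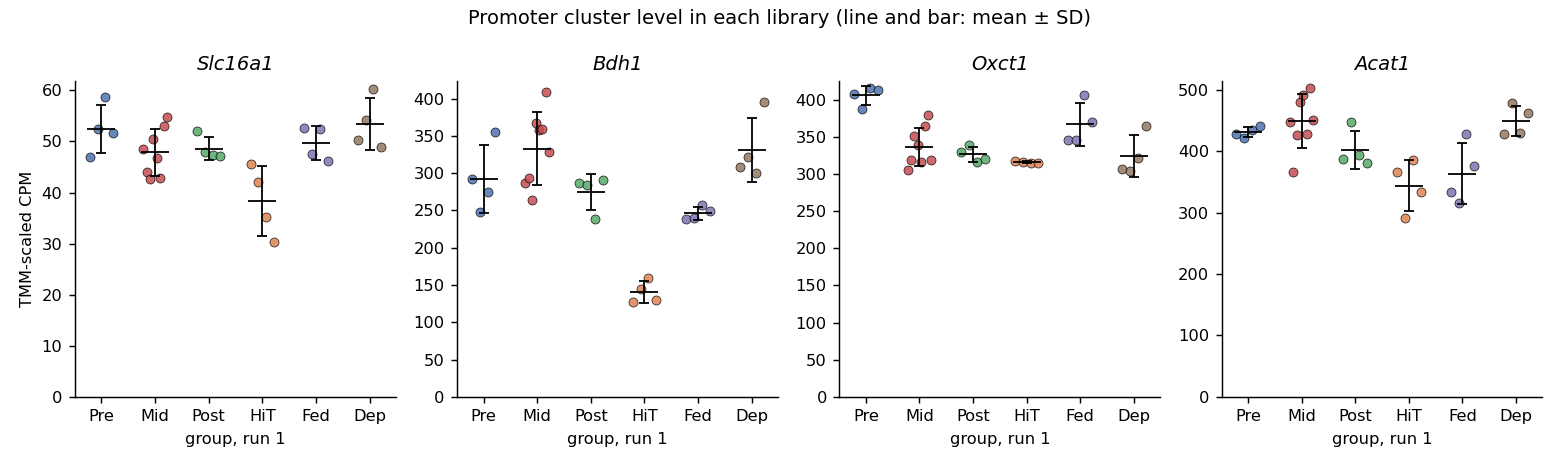
Level of each of the 4 clusters in the 28 libraries of run 1 (y axis, TMM-scaled CPM, from 0), by group (x axis). Points are libraries and bars give the mean ± SD. The 4 HiT libraries lie below all others for Bdh1, between 128 and 160, while for Oxct1 the 4 Pre libraries lie highest as a group, between 387 and 415.

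Slc16a1, the transporter through which ketone bodies enter the fiber, was lowest at high ambient temperature. Its 4 HiT libraries had 45.5, 42.1, 35.1 and 30.3 CPM. The Pre libraries had 47.0, 52.5, 58.6 and 51.6, and the Fed libraries had 52.6, 47.5, 52.4 and 46.2. No HiT library reached a library of the Pre, Fed, Post or Dep group, although the highest HiT library overlapped the Mid group, which ran from 42.7 to 54.8 with a median of 47.6. That separation held only with TMM. In the deposited tags per 1000000, the HiT libraries had 50.9, 40.7, 29.5 and 19.7, and the first lay inside the ranges of Pre, Fed, Post and Dep. The mean TMM-scaled level was 38.3 ± 6.84 (SD, n = 4) in HiT, 52.4 ± 4.78 in Pre, 49.7 ± 3.31 in Fed and 53.4 ± 5.12 in Dep (n = 4 each), 48.6 ± 2.28 in Post (n = 4) and 47.9 ± 4.62 in Mid (n = 8). The log2 difference of HiT from Pre was -0.45 (SE 0.10, edgeR adjusted p = 0.00147) and that of HiT from Fed was -0.37 (SE 0.10, edgeR adjusted p = 0.00556). Mid exceeded HiT by 0.32 (SE 0.09, edgeR adjusted p = 0.00646), Dep by 0.48 (SE 0.10, edgeR adjusted p = 0.00118) and Post by 0.34 (SE 0.10, edgeR adjusted p = 0.0144). From Dep down to Mid no neighbouring groups in the order of means differed. Mid and Pre differ in food and day as well as in torpor, and no difference was called between them. Mid against Pre was -0.13 with a 95% interval from -0.31 to 0.05 (edgeR adjusted p = 0.288).

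Bdh1, the mitochondrial 3-hydroxybutyrate dehydrogenase, had its lowest level at high ambient temperature. The HiT libraries had 128, 144, 160 and 130 CPM. The Fed libraries had 239, 240, 257 and 249, the Pre libraries 292, 247, 275 and 355, the Post libraries 287, 284, 239 and 291 and the Dep libraries 309, 321, 300 and 395. The Mid libraries ran from 264 to 409 with a median of 343. Every HiT library was thus below each of the other 24 libraries of run 1. Mean levels were 141 ± 14.8 in HiT (SD, n = 4), 246 ± 8.55 in Fed (n = 4), 275 ± 24.3 in Post (n = 4), 292 ± 45.8 in Pre (n = 4), 331 ± 43.3 in Dep (n = 4) and 333 ± 49.1 in Mid (n = 8).

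HiT was lower in Bdh1 than Pre by a log2 difference of -1.06 (SE 0.12, edgeR adjusted p = 5.14e-07), a level 0.481 times that of Pre. HiT was lower than Fed by -0.81 (SE 0.12, edgeR adjusted p = 1.45e-05). Mid and Dep each exceeded HiT by 1.24 (SE 0.11, edgeR adjusted p = 4.17e-09 for Mid, and SE 0.12, edgeR adjusted p = 1.33e-07 for Dep) and Post exceeded it by 0.97 (SE 0.12, edgeR adjusted p = 1.67e-06). Among the 7697 clusters with a mean of at least 10 CPM, 31 had a larger log2 difference of Mid over HiT than Bdh1, and 91 had a lower log2 difference of HiT from Pre.

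The fasted Mid and Dep mice at low temperature had more Bdh1 than the Fed mice, while neither passed against the Pre mice, which were also fed. Mid exceeded Fed by 0.44 (SE 0.11, edgeR adjusted p = 0.00281) and Dep exceeded Fed by 0.43 (SE 0.12, edgeR adjusted p = 0.00794), and neither the Mid nor the Dep libraries overlapped the Fed libraries. With scaling by library size alone both calls were lost, with differences of 0.31 for Mid (edgeR adjusted p = 0.166) and 0.19 for Dep (edgeR adjusted p = 0.46). Under that scaling the median difference from Fed over all clusters was -0.117 for Mid and -0.225 for Dep. With TMM it was 0.003 and -0.004, so that the fall in the Bdh1 values goes with a shift of all clusters. Mid and Dep did not pass the test against each other, with a difference of -0.01 and a 95% interval from -0.23 to 0.21 (edgeR adjusted p = 0.978). Mid against Pre was 0.19, with a 95% interval from -0.03 to 0.41 (edgeR adjusted p = 0.192). Dep against Pre was 0.18, with a 95% interval from -0.07 to 0.43 (edgeR adjusted p = 0.296). After refeeding, Post was lower than Mid by -0.28 (SE 0.11, edgeR adjusted p = 0.0483). This last call was near the threshold, the groups overlapped, and it was lost in 21 of the 28 fits that left out 1 library, with differences from -0.32 to -0.21. In the order of means, Fed and HiT were the only neighbours that differed.

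Oxct1, which encodes the enzyme that commits acetoacetate to use, followed another order. The Pre libraries had 408, 387, 415 and 413 CPM, the Post libraries 330, 339, 317 and 320, the HiT libraries 317, 315, 314 and 315 and the Dep libraries 307, 304, 321 and 364. The Fed libraries had 346, 345, 407 and 370, and the Mid libraries ran from 305 to 379 with a median of 329. The Pre libraries lay above all libraries but 1 of Fed. The means were 406 ± 13.05 in Pre (SD, n = 4), 367 ± 28.997 in Fed (n = 4), 336 ± 26.2 in Mid (n = 8), 326 ± 9.96 in Post (n = 4), 324 ± 27.7 in Dep (n = 4) and 316 ± 1.28 in HiT (n = 4).

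Oxct1 was lower than in Pre by -0.27 in Mid (SE 0.06, edgeR adjusted p = 0.0013), by -0.36 in HiT (SE 0.07, edgeR adjusted p = 0.000278), by -0.32 in Dep (SE 0.07, edgeR adjusted p = 0.00125) and by -0.31 in Post (SE 0.07, edgeR adjusted p = 0.0193). These 4 groups did not overlap the Pre group. The refed mice showed no called return, and Post against Mid was -0.04 with a 95% interval from -0.17 to 0.08 (edgeR adjusted p = 0.624). The call of Post against Pre was lost in 6 of 28 fits, without Post replicate 1, 3 or 4 or Pre replicate 1, 3 or 4, with differences from -0.34 to -0.29 over all 28. Fed against Pre was -0.15 (SE 0.07, edgeR adjusted p = 0.182). HiT was lower than Fed by -0.22 (SE 0.07, edgeR adjusted p = 0.0155), which was lost without Fed replicate 3 (-0.16, edgeR adjusted p = 0.0699) and with only the 2 compared groups (-0.23, edgeR adjusted p = 0.0599) or all 38 libraries (-0.23, edgeR adjusted p = 0.0546). Dep was lower than Fed by -0.18 (SE 0.07, edgeR adjusted p = 0.0473), which was lost in 21 of 28 fits and under 4 of the 9 other settings. No neighbouring groups differed in the order of means.

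Acat1, the mitochondrial thiolase that also serves isoleucine breakdown, was lower in both the warm and the fed mice of day 2 than in the fasted mice of day 2 at low temperature. The HiT libraries had 366, 292, 385 and 334 CPM, the Fed libraries 334, 316, 428 and 376, the Dep libraries 429, 479, 431 and 462, the Pre libraries 428, 422, 434 and 442 and the Post libraries 388, 448, 394 and 381. The Mid libraries ran from 367 to 504 with a median of 449. With the TMM scaling, the Dep libraries lay above every HiT and Fed library, and Mid overlapped both. The means were 450 ± 44.0 in Mid (SD, n = 8), 450 ± 24.6 in Dep (n = 4), 432 ± 8.57 in Pre (n = 4), 403 ± 30.8 in Post (n = 4), 363 ± 49.7 in Fed (n = 4) and 345 ± 40.8 in HiT (n = 4).

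Mid exceeded HiT in Acat1 by 0.39 (SE 0.09, edgeR adjusted p = 0.000832) and Fed by 0.31 (SE 0.09, edgeR adjusted p = 0.00659). Dep exceeded HiT by 0.39 (SE 0.10, edgeR adjusted p = 0.00427) and Fed by 0.31 (SE 0.10, edgeR adjusted p = 0.0147), and the call of Dep against Fed was lost without Fed replicate 1 (0.27, edgeR adjusted p = 0.0523) or Fed replicate 2 (0.25, edgeR adjusted p = 0.0661), with only the 2 compared groups (0.30, edgeR adjusted p = 0.0597) and with scaling by library size alone (0.07, edgeR adjusted p = 0.812). Under this last setting the median of Dep against Fed over all clusters was -0.225, against -0.004 with TMM. HiT was lower than Pre by -0.33 (SE 0.10, edgeR adjusted p = 0.0115), which was lost without HiT replicate 2 (-0.25, edgeR adjusted p = 0.0591). Mid against Pre was 0.06 with a 95% interval from -0.11 to 0.23 (edgeR adjusted p = 0.635), and a negative value with 3 of the other settings. Dep against Mid was 0.000476 with a 95% interval from -0.17 to 0.17 (edgeR adjusted p = 0.999). As for Oxct1, no neighbouring groups differed in the order of means.

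**Figure D2:**
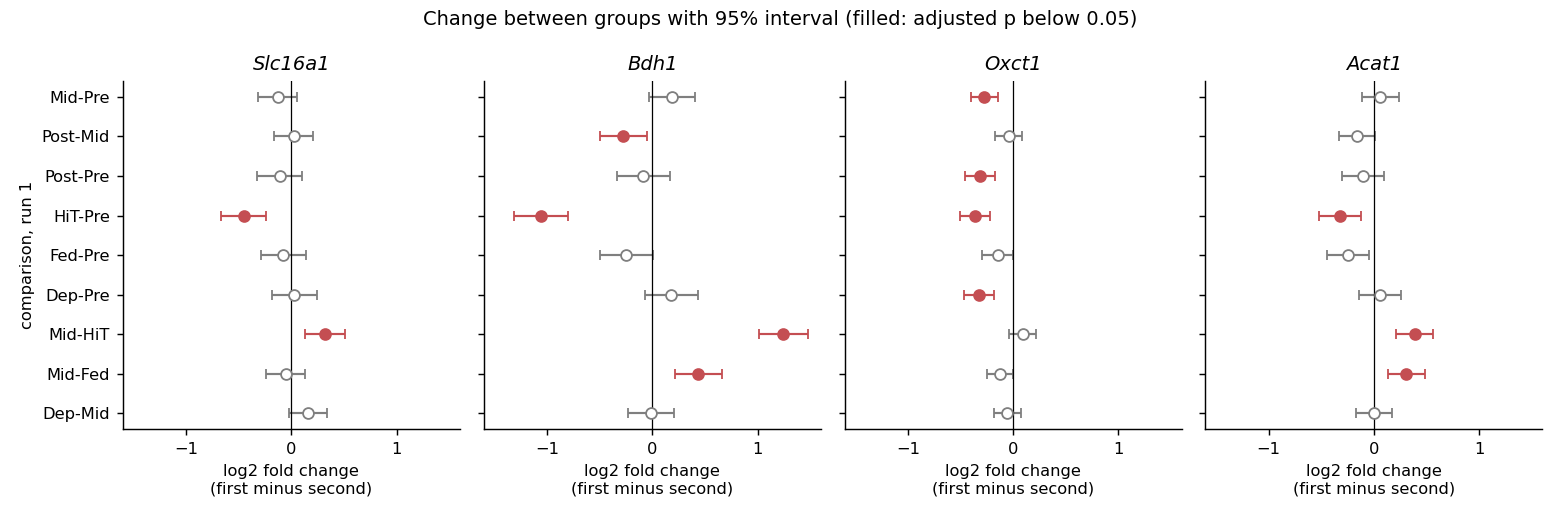
Log2 fold change of the first named group over the second (x axis) for 9 comparisons of run 1 (y axis), with 95% intervals, for the 4 clusters. Filled points passed the threshold of 0.05 after adjustment over all clusters. HiT against Pre is filled for all 4 clusters, from -1.06 for Bdh1 to -0.33 for Acat1, and Dep against Mid is filled for none.

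Counted over the 4 clusters, the warm group gave the most calls. Against Pre, 4 of 4 were lower in HiT, where 14.9% of the 10776 clusters of run 1 were lower. Against HiT, 3 of 4 were higher in Mid (19.2% of all clusters), 3 of 4 in Dep (11.3%) and 2 of 4 in Post (12.5%), and against Fed 3 of 4 were lower in HiT (19.952%). The median log2 difference of HiT from Pre was -0.41 over the 4 and 0.04 over all clusters. Without HiT replicate 4, the counts of HiT against Pre, Mid against HiT and HiT against Fed were 4, 3 and 3 as before. With scaling by library size alone, the counts fell to 3 for HiT against Pre, 2 for Mid against HiT, 1 for Dep against HiT and 1 for Post against HiT, and that of HiT against Fed was 3. The calls lost were those of Acat1 for HiT against Pre (edgeR adjusted p = 0.0545) and Dep against HiT (edgeR adjusted p = 0.225) and of Slc16a1 for Mid, Dep and Post against HiT (edgeR adjusted p = 0.122, 0.183 and 0.195). Under that scaling, calls over all 10776 clusters, in either direction, fell as well. They went from 3604 to 1974 for HiT against Pre, from 4422 to 2323 for Mid against HiT and from 4657 to 2961 for HiT against Fed. For Dep and Post against HiT they went from 2861 to 1108 and from 3142 to 1422.

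Macrophage markers moved along with the warm group. All 4 clusters of 4 macrophage markers (Cd68, Csf1r, C1qa and C1qb, while Adgre1 had no cluster) were higher in HiT than in Pre (18.5% of all clusters were higher), and their summed level was 71.6 to 161 in HiT against 23.7 to 48.0 in the other groups of run 1. The other lists are read against the 14.9% of all clusters that were lower. The comparison of HiT with Pre gave 3 lower and 0 higher of 18 slow fiber clusters, 3 lower and 1 higher of 13 fast fiber clusters, 1 lower of 6 adipocyte clusters, 3 lower of 7 red blood cell clusters, 2 lower of 5 endothelial clusters, 0 of 4 Schwann cell clusters and 1 lower of 4 tendon clusters. The red blood cell list lacked a cluster for Alas2. The part of these cells in the lower levels of the 4 genes was not tested.

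Counts in the course of torpor are given beside the share over all clusters. Against Pre, 1 of 4 clusters was lower in Mid (14.8% of all clusters), 1 of 4 in Post (0.798%) and 1 of 4 in Dep (12.1%), which was Oxct1 each time, and 0 were higher. The median log2 difference of Mid from Pre was -0.04 over the 4 and 0.01 over all clusters. Against Mid, 1 of 4 was lower in Post (17.5%), which was Bdh1. Against Fed, 2 of 4 were higher in Mid (16.6%), namely Bdh1 and Acat1, and Dep had the same 2 higher (18.6%) and Oxct1 lower (19.998%). With scaling by library size alone, 0 of 4 were higher than Fed in Mid or Dep in edgeR, and Oxct1 lost its calls for Mid against Pre (edgeR adjusted p = 0.0735) and Post against Pre (edgeR adjusted p = 0.781). Under that scaling, calls over all clusters, in either direction, fell as well. Against Fed they went from 3797 to 2181 for Mid and from 4160 to 2850 for Dep. Against Pre they went from 3253 to 1458 for Mid and from 199 to 21 for Post. No cluster passed in edgeR between Dep and Mid, where 0 of 4 had an unadjusted p under 0.05, DESeq2 called 0 and 2.03% of all clusters were called. None passed in edgeR or DESeq2 between Fed and Pre (2 of 4 at an unadjusted p under 0.05, 11.2% of all clusters), Post and Fed (1 of 4, 22.2%) or Post and Dep (1 of 4, 24.6%).

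Within a library, the tags of one gene per tag of another do not depend on any scaling, and these ratios were looked at after the levels had been seen. Bdh1 gave 0.402 to 0.509 tags per Oxct1 tag in the HiT libraries, 0.632 to 0.695 in Fed, 0.639 to 0.860 in Pre, 0.755 to 0.909 in Post, 0.752 to 1.13 in Mid and 0.935 to 1.08 in Dep. The HiT libraries were below all others of run 1, and every Dep library was above every Pre, Fed and Post library. Per Acat1 tag, Bdh1 gave 0.349 to 0.494 tags in HiT, and the lowest value in any other group of run 1 was 0.586. Oxct1 per Acat1 tag was 0.916 to 0.956 in Pre and 0.950 to 1.09 in Fed, and 0.642 to 0.870 in Mid and 0.635 to 0.788 in Dep, so that Mid and Dep lay below both. The refed Post libraries, at 0.756 to 0.851, also lay below every Pre and Fed library and inside the Mid range. The HiT libraries, at 0.816 to 1.08, spanned from inside the Mid range to inside the Fed range.

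**Figure D3:**
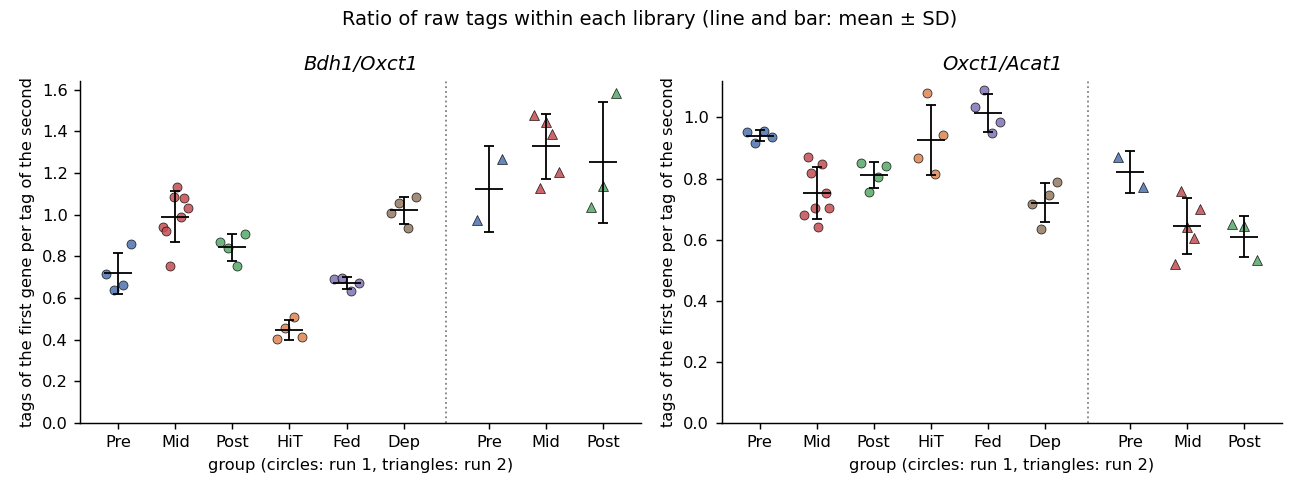
Raw tags of one cluster per tag of another within each library (y axis, from 0), by group (x axis), with run 1 as circles and run 2 as triangles and bars for the mean ± SD. In run 1 the Bdh1 to Oxct1 ratio is lowest in HiT (0.402 to 0.509), and the Oxct1 to Acat1 ratio is lower in Mid, Dep and Post than in Pre and Fed.

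Run 2 gave the course of torpor in other mice. Bdh1 had 293 and 317 CPM in Pre, 312, 288, 323, 321 and 300 in Mid, and 217, 257 and 231 in Post, and the Post libraries overlapped neither group. Post was lower than Mid by -0.39 (SE 0.09, edgeR adjusted p = 0.0106), the only call among the 4 genes in that comparison (8.65% of all clusters lower). It was lost without Post replicate 5 (-0.33, edgeR adjusted p = 0.0597) and with sequencing lane as a term (-0.35, edgeR adjusted p = 0.179). Post against Pre was -0.38 (SE 0.10, edgeR adjusted p = 0.219). Mid against Pre was 0.02 with a 95% interval from -0.20 to 0.23 (edgeR adjusted p = 0.931). Lane 3 held both Pre and 4 of the 5 Mid libraries, and lane 4 held Mid replicate 13 and all Post libraries, so that Mid replicate 13 was the only library by which lane 4 and the Post group could be told apart.

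Oxct1 had 300.1 and 250 in Pre, 211, 255, 223, 231 and 249 in Mid and 209, 226 and 146 in Post in run 2. Mid against Pre was -0.23 there, with a 95% interval from -0.58 to 0.12 (edgeR adjusted p = 0.402), and Post against Mid was -0.27 (edgeR adjusted p = 0.225). In Acat1 the changes were 0.13 for Mid against Pre (edgeR adjusted p = 0.538) and -0.22 for Post against Mid (edgeR adjusted p = 0.188), and in Slc16a1 they were -0.30 (edgeR adjusted p = 0.281) and 0.24 (edgeR adjusted p = 0.302). Between Mid and Pre, 0 of 4 clusters passed in edgeR or DESeq2, 0 of 4 had an unadjusted p under 0.05, and 9.74% of all clusters were called. Between Post and Pre, 0 of 4 passed in edgeR, 2 of 4 had an unadjusted p under 0.05, and edgeR called 0.111% of all clusters, while DESeq2 called 1 of 4 and 169 of all 10816 clusters.

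Slc16a1 was higher in run 2 than in run 1 in every group. Its run 2 libraries had 129 and 115 in Pre, 122, 77.5, 94.0, 100.1 and 101 in Mid and 95.9, 124 and 130 in Post, all above the highest library of run 1 at 60.3. The log2 difference of run 2 from run 1 was 1.14 in Pre (SE 0.14, edgeR adjusted p = 2.59e-07), 1.01 in Mid (SE 0.09, edgeR adjusted p = 9.30e-10) and 1.21 in Post (SE 0.13, edgeR adjusted p = 1.34e-08). Oxct1 went the other way, by -0.64 in Pre (edgeR adjusted p = 0.000156), -0.56 in Mid (edgeR adjusted p = 2.37e-06) and -0.81 in Post (edgeR adjusted p = 9.88e-07), as did Acat1, by -0.45 (edgeR adjusted p = 0.00224), -0.33 (edgeR adjusted p = 0.000495) and -0.41 (edgeR adjusted p = 0.00128). Bdh1 gave no call, with -0.02 in Pre, -0.14 in Mid and -0.28 in Post (edgeR adjusted p = 0.92, 0.21 and 0.07). Hence 3 of the 4 were called in each group, where 50.2% of 10819 clusters were called in Pre, 63.4% in Mid and 56.8% in Post. Scaling-free ratios moved as well, with 0.0963 to 0.188 Slc16a1 tags per Oxct1 tag in run 1 and 0.304 to 0.893 in run 2. Marker clusters moved with the run too, read against the 50.2% of all clusters called in either direction in Pre. In the Pre mice of run 2, 10 of 18 slow fiber clusters were higher and 1 lower. Of 13 fast fiber clusters, 5 were higher and 4 lower, and of 7 red blood cell clusters 2 were higher and 3 lower. The endothelial (5 clusters) and tendon (4 clusters) lists each had 1 higher and 1 lower. The macrophage and Schwann cell lists (4 clusters each) each had 1 lower, and the adipocyte list (6 clusters) had 0 of either. The part of these cells in the differences was not tested. Mice, sequencing and run cannot be told apart.

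**Figure D4:**
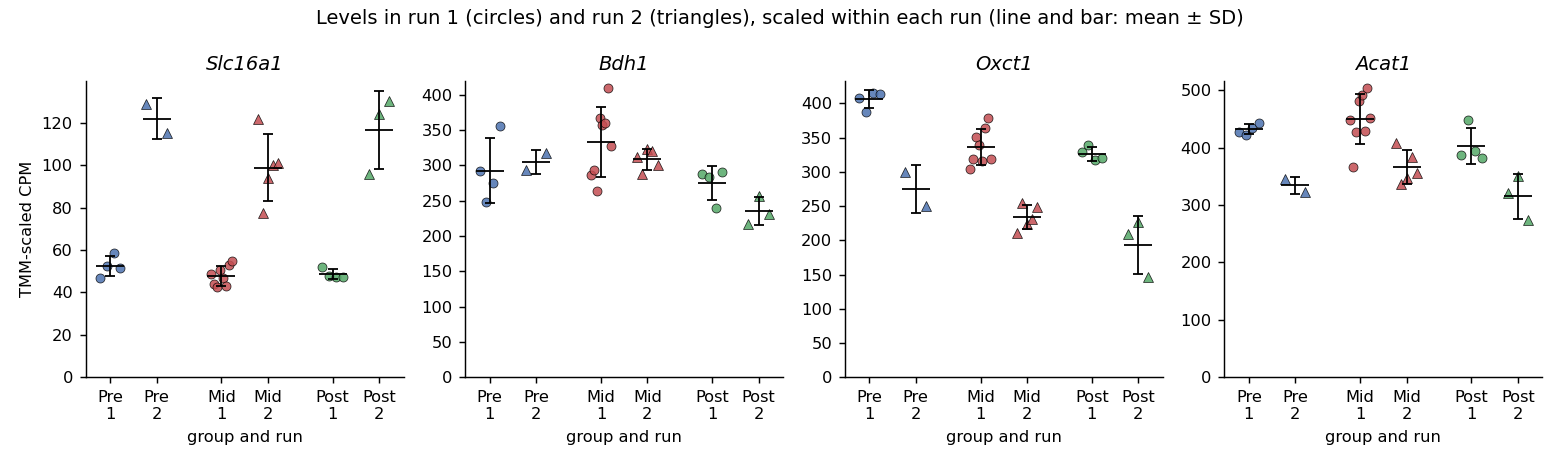
Level of each cluster (y axis, TMM-scaled CPM, from 0) in the Pre, Mid and Post libraries of run 1 (circles) and run 2 (triangles), with bars for the mean ± SD. All 10 run 2 libraries lie above run 1 for Slc16a1, whereas Oxct1 lies lower in run 2 in each group.

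The changes themselves did not pass a test of their difference between runs. For Mid against Pre, the change in run 2 minus that in run 1 was 0.09 for Oxct1, -0.12 for Bdh1, 0.12 for Acat1 and -0.13 for Slc16a1 (edgeR adjusted p = 0.986 for each). For Post against Mid it was -0.26 for Oxct1 (95% interval -0.53 to 0.02, edgeR adjusted p = 0.756), -0.14 for Bdh1, -0.08 for Acat1 and 0.20 for Slc16a1. Over all 10819 clusters, edgeR's quasi-likelihood test called 0 (0.00%) for either change, with 605 and 704 at an unadjusted p under 0.05, and its likelihood ratio test called 8 and 0.

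Other genes of ketone body metabolism were examined from a list of 13, of which 6 had a cluster. Slc16a7, Slc16a6, Hmgcll1, Bdh2, Acat2, Oxct2a and Oxct2b had none. Of the 6 clusters, 0 were higher and 2 lower in Mid than in Pre (14.8% of all clusters lower), 1 was higher and 3 lower in HiT than in Pre (18.5% and 14.9%), 1 was higher and 1 lower in Mid than in HiT (19.2% and 21.8%), and 0 were higher and 3 lower in Mid than in Fed (18.6% lower). Hmgcs1, for the cytosolic synthase of cholesterol synthesis, is in the lower counts of Mid and of HiT against Pre, with -0.21 (edgeR adjusted p = 0.0453) and -0.24 (edgeR adjusted p = 0.0481), and these calls were lost in 15 and 16 of 28 fits that left out 1 library. Slc16a3 lost its call for HiT against Pre in 6 of 28 fits. Without Fed replicate 1, 1 cluster in place of 3 was lower in Mid than in Fed, since Bsg (-0.11, edgeR adjusted p = 0.175) and Slc16a3 (-0.41, edgeR adjusted p = 0.307) were lost, and over all such fits they were lost in 9 and 13 of 28.

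Aacs encodes acetoacetyl-CoA synthetase, which turns acetoacetate to lipid synthesis in the cytosol. The Pre libraries had 10.8 to 27.2 CPM and the Mid libraries 2.70 to 17.8, with overlap. Mid was lower than Pre by -1.35 (edgeR adjusted p = 0.0155, lost without Pre replicate 1, at -1.07), and lower than Fed by -1.36 (edgeR adjusted p = 0.0124, lost without Fed replicate 4, at -1.0005). Post exceeded Mid by 1.21 (edgeR adjusted p = 0.0265, lost without Post replicate 3 or 4, at 0.90 and 1.08). In run 2, Mid was lower than Pre by -1.19 (edgeR adjusted p = 0.0395), lost in 6 of 10 fits and with sequencing lane as a term (edgeR adjusted p = 0.07), and Post exceeded Mid by 1.34 (edgeR adjusted p = 0.00831), kept in all 10 but lost with sequencing lane as a term (edgeR adjusted p = 0.191).

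Among the transport genes, Emb, for the transporter chaperone embigin, was higher in HiT. The HiT libraries had 10.95 to 26.8 CPM, and the highest library of any other group of run 1 had 11.2. HiT exceeded Pre by 1.13 (edgeR adjusted p = 0.000207) and Fed by 1.75 (edgeR adjusted p = 1.07e-06). Bsg, for basigin, the chaperone of monocarboxylate transporter 1, was lower in HiT than in Pre by -0.22 (edgeR adjusted p = 0.0101), with 299 ± 16.4 against 349 ± 17.4 CPM (SD, n = 4 each). Slc16a3, for the lactate exporter monocarboxylate transporter 4, was lower in HiT than in Fed by -1.22 (edgeR adjusted p = 0.00429), with 4.93 to 6.69 in HiT and 9.36 to 21.9 in Fed. This was not particular to HiT, since Dep was lower than Fed by -1.23 (edgeR adjusted p = 0.00512) and Mid by -0.72 (edgeR adjusted p = 0.0419). Dep against HiT was -0.0079 (edgeR adjusted p = 0.991).

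**Figure D5:**
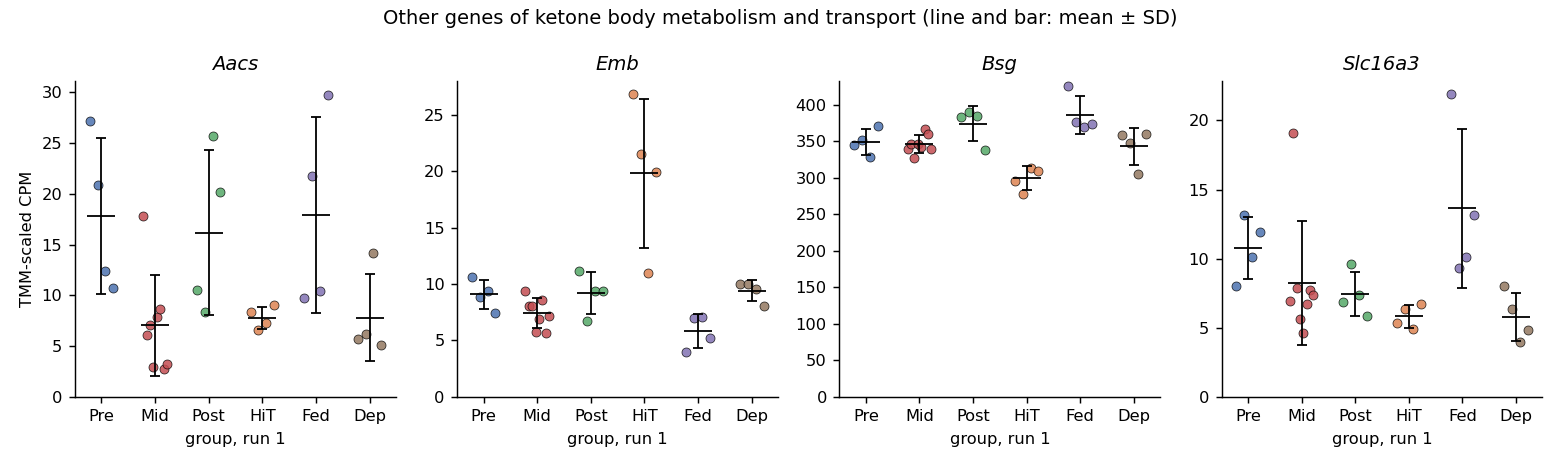
Level of 4 other genes of ketone body metabolism and transport (y axis, TMM-scaled CPM, from 0) in the 28 libraries of run 1, by group (x axis), with bars for the mean ± SD. Aacs runs from 2.70 to 17.8 in Mid and from 10.8 to 27.2 in Pre, and Emb reaches 26.8 in HiT, while Bsg has a mean of 299 in HiT and 349 in Pre.

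Across the 28 libraries of run 1, the log2 levels of the 4 genes went together to unequal degrees. Pearson's r was 0.75 between Bdh1 and Acat1, 0.61 between Bdh1 and Slc16a1 and 0.47 between Acat1 and Slc16a1, and between 0.22 and 0.30 for the pairs with Oxct1. Over the 10 libraries of run 2 it was 0.65 for Bdh1 and Acat1, 0.55 for Bdh1 and Oxct1, 0.51 for Oxct1 and Acat1 and between -0.25 and -0.12 for the pairs with Slc16a1. These values describe libraries that share groups and scaling, and no test was made. Run 2 held no HiT, Fed or Dep mice, so r rests on unlike groups in the runs.

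Among 9441 clusters with a mean of at least 1 CPM and an assigned gene, those most like Bdh1 over the 28 libraries were Tuba8 (r = 0.95, and 0.54 over the 10 libraries of run 2), Got1 (0.93 and 0.70), Atp5a1 (0.92 and 0.87), Mia2 (0.91 and 0.50) and Tmem52 (0.91 and 0.37). Those most like Acat1 were Ndufs1 (0.92 and 0.72), Echs1 (0.90 and 0.84), Etfa (0.89 and 0.86), Uqcrc1 (0.89 and 0.62) and Gm13910 (0.89 and 0.82). Those most like Oxct1 were Gng5 (0.82 and 0.72), Rtn4ip1 (0.81 and 0.87), Mettl23 (0.79 and 0.53), Gm10039 (0.77 and 0.77) and Prss23 (0.77 and 0.01). Those most like Slc16a1 were Ppfibp2 (0.80 and -0.09), Ndufb11 (0.74 and 0.07), Gm20186 (0.72 and 0.15), Lrrc14b (0.71 and -0.05) and Cflar (0.70 and -0.33). The likeness to Slc16a1 was thus not seen over the Pre, Mid and Post libraries of run 2. Since run 2 held no HiT, Fed or Dep mice, r rests on unlike groups in the runs.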

How the data were processed

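nAnT-iCAGE libraries of soleus muscle from 38 mice were analysed. Per the submitters' processing notes and the study's methods, reads were aligned by BWA and HISAT2 to mm10 (GRCm38), and PromoterPipeline grouped the start sites into clusters (versions not given in the sources used here). The deposited table gives per cluster and library raw tag counts, used for every test, and TPM (tags per 1000000) that the authors normalised per library. Here TPM was used only for the share of each library inside clusters and beside the TMM-scaled levels of Slc16a1. Deposited positions count from 0 and are given here from 1. In R 4.3.3, edgeR 4.0.16 (quasi-likelihood, TMM, group as the only term, all clusters with any tag) was fitted to each run and, for differences between runs, to the Pre, Mid and Post libraries of both. Alternatives covered scaling, filtering, DESeq2 1.42.0, a likelihood ratio test, lane, run, a replicate block and leaving out each library. The scripts were tested on simulated data. No replicate pair was as alike as sampling noise. The named genes were all clusters of the 4 genes, the 13 listed pathway genes (1 further listed gene is not reported here), and the 5 clusters most correlated with each member by log2 CPM with a prior count of 2. The 4 genes and all lists were chosen with earlier results of these data known. Nothing in the labels says that same-numbered mice were related. The p-values rest on the spread between libraries of 1 mouse each, in which mouse, dissection and library preparation are not separated.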

Additional observations from a re-analysis of the deposited data

Results flagged for a closer look

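Of 28 groups of 4 or more libraries examined for a library far from the others, 1 was marked. For Bdh1, Post replicate 3 of run 1 had 239 TMM-scaled CPM, while the other Post libraries had 284 to 291, so that the gap to its nearest neighbour took 0.864 of the range of the group. Chance marks about 1 group in 20, and Post replicate 3 was kept.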

How the results depend on the processing

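Bdh1's 5 calls against HiT held under all 9 alternative settings and in all 28 fits that left out 1 library. Counts were made first over the 4 genes in Mid against Pre and Post against Mid of both runs. For run 1 they also took in Mid against HiT, Mid against Fed, Dep against Mid and HiT against Pre. There, 260 values under the alternatives kept their direction and their side of the threshold, 14 lost their call, 6 gained one and 10 changed sign. The 260 include values with no call to lose and the cluster numbers of the other windows. Over the other called results, with those of the listed pathway genes and the differences between runs, 352 were kept, 47 lost their call and 1 changed sign. The cause was not tested. Adjusted p-values are from edgeR. With scaling by library size alone, calls were lost for Acat1 in HiT against Pre (-0.50) and Mid against Fed (0.18), for Bdh1 in Mid against Fed (0.31), Post against Mid in run 1 (-0.26) and Post against Mid in run 2 (-0.31), for Oxct1 in Mid against Pre (-0.35) and for Slc16a1 in Mid against HiT (0.38). Medians over all clusters of run 1 moved too under this setting, to -0.133 for HiT against Pre and -0.117 for Mid against Fed. They were -0.075 for Mid against Pre, -0.098 for Dep against Mid and 0.113 for Mid against HiT. Under the same setting the sign turned, with no call before or after, for Acat1 in Dep against Mid (-0.11) and Mid against Pre (-0.014), for Bdh1 in Mid against Pre of run 2 (-0.033) and for the difference between runs in the Post against Mid change of Acat1 (0.016). With upper-quartile scaling, Bdh1 lost Post against Mid in run 1 (-0.21), Oxct1 gained Mid against Fed (-0.17), and the sign turned for Acat1 in Mid against Pre (-0.011), Bdh1 in Dep against Mid (0.000176) and in Mid against Pre of run 2 (-0.014), and Oxct1 in Post against Mid (0.027). Bdh1 in Post against Mid of run 1 was also lost with the size factors of DESeq2 (-0.28) and with only the 2 compared groups (-0.27), a setting that also cost Acat1 its call in Mid against Fed (0.29). With lane as a term, Bdh1 in Post against Mid of run 2 was -0.35 and lost. With all 38 libraries and run as a term, 1 value per comparison was estimated over both runs and set beside the result of each run. On that footing, calls were gained for Acat1 in Post against Mid (-0.16) and Slc16a1 in Mid against Pre (-0.21). For Oxct1 in Mid against Pre, the joint value (-0.27) was called where run 2 on its own was not, and it is not an estimate from run 2. Acat1 in Dep against Mid turned to -0.0099 in this fit. Nothing in the labels pairs the mice of run 1 by replicate number. The 60 same-number pairs of libraries had correlations of their deviations from -0.487 to 0.470 with a median of -0.0376. The median over 260 other pairs was 0.0307, and such correlations cannot show whether mice were paired. With a replicate block, Acat1 in Mid against Fed (0.25) and Bdh1 in Post against Mid (-0.13) were lost, and the sign turned for Acat1 in Mid against Pre (-0.0054) and Bdh1 in Dep against Mid (0.13). No paired analysis was possible because Mid shared no number with Pre or Post in the run 2 comparisons with Mid, and Post against Pre of run 2, which share the numbers 5 and 6, was not fitted with a block. Over the fits without 1 library each, the ranges of values that crossed the threshold or 0 were -0.035 to 0.026 for Acat1 in Dep against Mid, -0.39 to -0.25 for Acat1 in HiT against Pre, -0.11 to 0.040 for Bdh1 in Dep against Mid, -0.037 to 0.087 for Bdh1 in Mid against Pre of run 2, -0.32 to -0.21 and -0.46 to -0.33 for Bdh1 in Post against Mid of runs 1 and 2, and -0.012 to 0.058 for Slc16a1 in Post against Mid. The lowest count behind a value of the 4 genes was 603 tags, and counting error and the spread between mice were not separated.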
